A study of Mus musculus with 4 samples.

Results

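The 10 glycolysis enzymes described here were the genes Hk1, Hk2, Pfkl, Pfkp, Pfkfb3, Aldoa, Pgk1, Eno1, Pkm and Ldha, found by their symbols among 24873 listed genes. All 10 of 10 members passed the filter on low values, a mean of at least 10 normalized counts, as did 20485 genes in all. By the paper's account, the data were RNA-Seq of CD31+CD45- cells isolated by flow cytometry from the brain. The labels instead describe tdTomato-positive brain cells, and how these descriptions relate is not given in the sources used here. Every mouse was VE-cadherin cre/ERT2 Mgp fl/fl, in which an endothelial promoter drives a Cre recombinase that tamoxifen activates to delete Mgp, the gene of matrix Gla protein, an inhibitor of bone morphogenetic proteins. The tamoxifen group received injections at 10 weeks of age, 75 mg/kg a day over 5 days, whereas control littermates carried the same alleles and received none, and the methods name C57BL/6J as the strain of the brain tissue. Cells were collected on day 9, and each of the 2 control and 2 tamoxifen libraries pooled 3 mice. Tamoxifen itself and the loss of Mgp cannot be told apart in this design. The comparison asked how the transcripts of glycolysis differed between the groups.

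Glycolysis splits glucose into pyruvate in the cytosol and yields ATP without oxygen, and lactate dehydrogenase turns pyruvate into lactate when it does not enter the mitochondrion. Hexokinase and phosphofructokinase catalyse committed steps at its start, and pyruvate kinase catalyses the last. Endothelial cells are known for drawing much of their ATP from this pathway, and brain endothelium also carries glucose from blood to brain. Many of its enzymes exist as isoenzymes whose use differs between cell types, and hypoxia-inducible factors and MYC are textbook regulators of their genes.

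The libraries held between 35387438 and 49799321 reads on genes. The targeted gene, Mgp, stood at 1094 and 1352 normalized counts in control and at 945 and 909 after tamoxifen, and its difference did not pass the test (log2 fold change -0.39 ± 0.18 (SE), limma adjusted p = 0.0986). Under quantile normalization Mgp was called lower (-0.65, limma adjusted p = 0.0128). All 10 of 10 endothelial markers were lower in the tamoxifen libraries, and their summed level went from 964318 to 988125 normalized counts in the control group to 85911 to 168017. Pecam1, the gene of CD31, stood at 83681 and 88796 in control against 15987 and 8973. Ptprc, the gene of CD45, against which the cells were sorted in the paper's account, stood at 50.7 and 83.9 in control against 1423 and 1119. Summed markers of other cells were higher, from 27399 to 31759 in control against 138253 to 292326 for 7 of 7 astrocyte markers, from 232 to 297 against 81197 to 108979 for 7 of 7 neutrophil markers and from 19224 to 39137 against 112680 to 173729 for 7 of 7 erythroid markers. Higher sums were also seen for 6 of 6 fibroblast markers (2257 to 3213 against 59759 to 69745), 7 of 7 pluripotency markers (68.5 to 110 against 39408 to 51305) and 7 of 7 cell-cycle genes (1122 to 1355 against 77451 to 80373). Called higher as well were 5 of 7 neuron markers (1278 to 1665 against 10579 to 19149), 6 of 7 oligodendrocyte markers (381 to 403 against 3829 to 4872) and 6 of 6 tested lymphocyte markers (119 to 174 against 2982 to 3995). The remaining lists had 5 of 7 microglia markers (1396 to 2708 against 3475 to 3668), 4 of 5 choroid plexus and ependymal markers (6695 to 9361 against 16006 to 68525) and 1 of 9 pericyte and smooth muscle markers (33341 to 62435 against 42713 to 85320) higher. Among the listed markers, only the lymphocyte gene Cd3e was at 0 in any library, control library 1. The part of these cells in the glycolysis results was not tested, and in bulk RNA a change of cell types and a change within cells cannot be told apart.

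In GRCm39 (GENCODE annotation), Hk2 is on chr6:82699740-82751469 (minus strand), Pgk1 on chrX:105230706-105247305 (plus), Pfkp on chr13:6629798-6698970 (minus) and Pfkl on chr10:77818084-77845922 (minus). These 4 members have 1 start each in the RefSeq promoter table, so their windows are shown because each can be tied to its gene without choosing among starts. Hk2, Pgk1 and Pfkp rose in the tamoxifen libraries and Pfkl is given beside them as a member that did not pass the test. Each window runs 5' to 3' on the gene's strand from 250 bases before the start to 50 bases from it, on GRCm38.p6. Capitals mark the core letters of the hypoxia response element, ACGTG, and the form in which the first letter differs, GCGTG, read on either strand.
Hk2, chr6:82774405-82774704, strand -: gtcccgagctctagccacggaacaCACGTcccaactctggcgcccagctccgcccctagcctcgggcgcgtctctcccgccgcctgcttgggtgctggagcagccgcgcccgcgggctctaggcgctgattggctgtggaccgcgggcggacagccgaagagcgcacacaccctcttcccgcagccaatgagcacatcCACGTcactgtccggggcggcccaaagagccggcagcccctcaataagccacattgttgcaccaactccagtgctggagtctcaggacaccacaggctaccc
Pgk1, chrX:106186850-106187149, strand +: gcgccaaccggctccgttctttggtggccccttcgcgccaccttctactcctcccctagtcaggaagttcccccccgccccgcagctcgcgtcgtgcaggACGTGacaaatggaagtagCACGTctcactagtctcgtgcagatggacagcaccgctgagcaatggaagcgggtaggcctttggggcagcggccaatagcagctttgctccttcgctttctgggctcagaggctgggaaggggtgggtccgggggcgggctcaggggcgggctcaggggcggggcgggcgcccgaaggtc
Pfkp, chr13:6648722-6649021, strand -: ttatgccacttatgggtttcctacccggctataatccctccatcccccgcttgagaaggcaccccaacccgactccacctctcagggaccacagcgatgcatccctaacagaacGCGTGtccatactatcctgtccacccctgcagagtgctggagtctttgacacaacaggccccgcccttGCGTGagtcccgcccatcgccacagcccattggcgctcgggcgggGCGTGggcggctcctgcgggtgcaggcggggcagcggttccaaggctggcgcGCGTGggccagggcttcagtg
Pfkl, chr10:78009758-78010057, strand -: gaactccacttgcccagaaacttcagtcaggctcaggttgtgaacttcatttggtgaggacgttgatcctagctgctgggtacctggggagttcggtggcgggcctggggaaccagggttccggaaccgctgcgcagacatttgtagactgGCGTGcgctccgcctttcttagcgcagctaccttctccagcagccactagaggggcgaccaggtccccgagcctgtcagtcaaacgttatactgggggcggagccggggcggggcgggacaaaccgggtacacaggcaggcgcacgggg
The Hk2 window held 2 copies and the Pgk1 window held 2, all of the form that starts with A. The Pfkp window held 4 and the Pfkl window 1, all of the form that starts with G. Over all members, 15 of 18 windows and 10 of 10 genes held at least 1 copy, where some windows of Aldoa and Eno1 overlap each other. Among all 32851 windows of the table, 43.8% held one of these words, 19.6% held the form with A and 32.4% the form with G. These shares are by window. No share by gene was computed to set beside the 10 of 10, and a gene with several starts has more windows that can hold a copy. CACGTG, the E-box that MYC binds, contains the form with A and was in 7.15% of all windows. Among the members that did not pass the test, the Ldha window with most copies held 7 and the Hk1 window with most held 5. Both counts include matches on opposite strands that overlap each other. Each CACGTG counts as 2 copies in this way, and that Ldha window held 2 of them. A match of these letters is a description and no evidence of binding.

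Of the 10 enzymes, 5 rose in the tamoxifen libraries (Hk2, Pfkp, Aldoa, Pgk1 and Eno1), none fell, and 5 did not pass the test (Hk1, Pfkl, Pfkfb3, Pkm and Ldha) at a limma adjusted p under 0.05. Over all tested genes 33.4% were called higher and 25.5% lower, 58.9% in either direction, so the members' 5 of 10 was near the background share. With an absolute log2 fold change over 1 as well, 4 members were higher and 0 lower, against 28.6% and 16% of all genes. The 2 groups did not overlap for 8 members, 7 higher and 1 lower in the tamoxifen libraries, beside 82.3% of all genes in either direction, 43.1% higher and 39.2% lower. The members' log2 fold changes ran from -0.49 to 6.35 around a median of 0.58, and that of all tested genes was 0.05. At an unadjusted p under 0.05, 1 member, Hk1, was lower. Hk1 was called lower with a pseudocount of 5, a filter at 100 or the replicate block, while edgeR and DESeq2 on recovered reads called 0 members lower. With 2 libraries a group, p-values measure only the spread between these pooled libraries, and limma takes part of each gene's spread from the other genes.

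**Figure D1:**
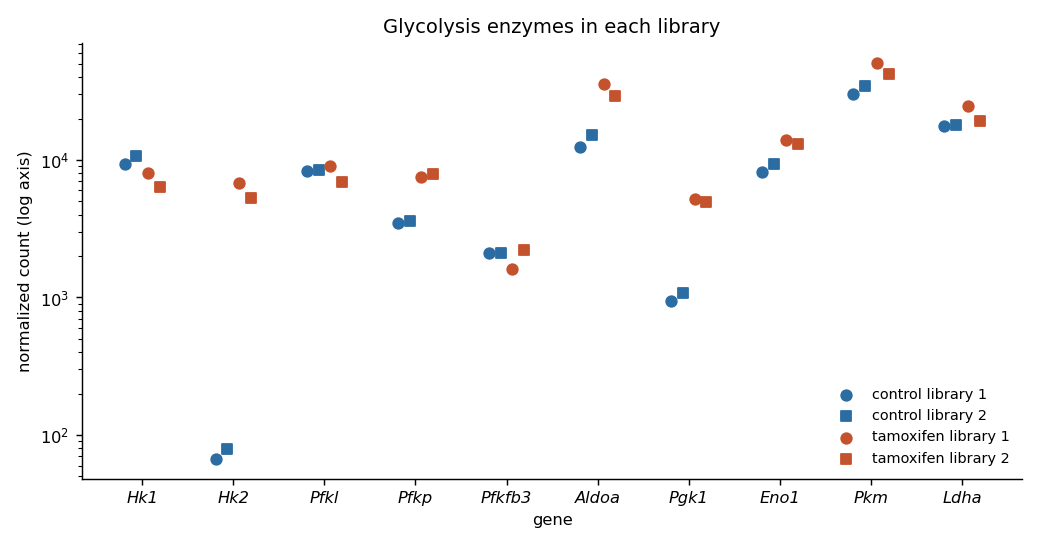
Normalized counts of the 10 enzymes (log axis) in each of 2 control (blue) and 2 tamoxifen (orange) libraries, 1 point a library. Hk2 sits below 100 in both control libraries and near those of Pfkl in both tamoxifen libraries, while the points of Pfkl and Pfkfb3 overlap.

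Hk2 showed the largest difference of the 10 enzymes. Hk1 and Hk2 encode hexokinases, which add the first phosphate to glucose, and Hk2 is the isoenzyme typical of insulin-sensitive and proliferating tissues. Control levels of Hk2 were 67.1 and 78.9 normalized counts, against 6831 and 5272 after tamoxifen. Both tamoxifen libraries thus stood far above both controls, by 6.35 ± 0.22 on the log2 scale or 81.4-fold (adjusted p = 3.37e-06, limma). Hk1, at chr10:62104621-62215687, had 9333 and 10736 in control against 8004 and 6372. Its groups did not overlap, but its log2 fold change of -0.49 ± 0.18 missed the threshold (limma adjusted p = 0.0522), with a 95% interval from -0.92 to -0.06. The limma adjusted p was 0.0467 with a pseudocount of 5, 0.0424 with a filter at 100 and 0.0460 with the replicate block, and it ran from 0.0424 to 0.932 over the 14 alternatives. Per kilobase of the canonical transcript, the level of Hk2 was 0.395% and 0.403% of that of Hk1 in control and 46.9% and 45.4% after tamoxifen. No 50-base word of either transcript occurred in a transcript of another gene.

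Pfkl and Pfkp encode the liver and platelet types of phosphofructokinase, which adds the phosphate that commits the sugar to glycolysis. Pfkp had 3475 and 3628 normalized counts in control and 7483 and 7935 in the tamoxifen libraries, a rise of 1.12 ± 0.15 on the log2 scale or 2.17-fold (limma adjusted p = 0.000486). Its exons overlap those of Pitrm1 on the other strand, whose mean went from 2094 to 4467 normalized counts, and whether counting used strand is not given in the sources used here. Pfkl had 8273 and 8476 in control and 8980 and 6888 in the tamoxifen libraries, which lie on both sides of the controls. Its log2 fold change was -0.09 ± 0.18 (95% interval -0.52 to 0.34, limma adjusted p = 0.691). Per kilobase, Pfkp stood at no more than 40.8% of Pfkl in either control library and at 79.3% and 110% after tamoxifen.

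Pfkfb3, at chr2:11476244-11558888, encodes the enzyme that makes the sugar bisphosphate activating phosphofructokinase and is known as a driver of endothelial glycolysis in sprouting vessels. It had 2092 and 2106 normalized counts in control and 1615 and 2216 in the tamoxifen libraries. Tamoxifen library 1 was below both controls and library 2 above them, and the log2 fold change was -0.15 ± 0.19 (95% interval -0.59 to 0.29, limma adjusted p = 0.514).

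Aldoa, Pgk1 and Eno1, enzymes of the middle and lower steps, rose. Aldoa encodes aldolase A, which cuts the sugar bisphosphate into triose phosphates, and lies at chr7:126393822-126399923. It had 12506 and 15134 normalized counts in control against 35633 and 29199 in the tamoxifen libraries, 1.23 ± 0.22 on the log2 scale or 2.34-fold (limma adjusted p = 0.00196). Pgk1 encodes phosphoglycerate kinase, which makes the first ATP of the pathway. Its values were 951 and 1086 in control against 5178 and 4965, 2.32 ± 0.15 on the log2 scale or 4.99-fold (limma adjusted p = 2.87e-05), the second largest difference among the 10. Eno1 (chr4:150321073-150337027) encodes alpha-enolase, which makes phosphoenolpyruvate. It had 8125 and 9313 in control against 14070 and 13134, 0.64 ± 0.17 on the log2 scale or 1.56-fold (limma adjusted p = 0.0139). The Eno1 call was lost without control library 1 (adjusted p = 0.161), tamoxifen library 1 (0.0772) or tamoxifen library 2 (0.0669), all by limma, and its log2 fold change then ranged from 0.55 to 0.69 over those fits. These genes share sequence with other annotated genes, and how shared reads were counted is not given in the sources used here. Of the 50-base words of the canonical transcript, 85.8% for Aldoa, 68.0% for Pgk1 and 63.6% for Eno1 also occurred in transcripts of other genes, mainly Gm57854, Pgk1-rs7 and Eno1b. Gm57854 is no separate copy by position: its exons overlap those of Aldoa on the same strand, and it is not among the listed genes. The exons of Aldoa also overlap those of Tlcd3b on the other strand, whose mean went from 2970 to 735 normalized counts.

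Pkm and Ldha, the genes of the last steps, had higher values in the tamoxifen libraries that did not pass the test. Pkm (chr9:59563364-59586663) encodes muscle pyruvate kinase, which makes pyruvate and ATP, and its M1 and M2 splice forms are summed here. It had 30089 and 34242 normalized counts in control and 50563 and 42160 in the tamoxifen libraries. The groups did not overlap, and the log2 fold change was 0.52 ± 0.25 (95% interval -0.05 to 1.10, limma adjusted p = 0.102), while DESeq2 on recovered reads called it (adjusted p = 0.0148). Ldha (chr7:46490899-46505061) encodes the A chain of lactate dehydrogenase. It had 17549 and 17860 in control and 24872 and 19231 in the tamoxifen libraries, 0.30 ± 0.21 on the log2 scale (95% interval -0.19 to 0.80, limma adjusted p = 0.245). Its tamoxifen libraries differed from each other by more than the lower of them differed from the controls. Words shared with other transcripts made up 34.2% for Pkm and 19.1% for Ldha. The exons of Pkm overlap those of Gm49759 on the same strand, whose mean went from 1562 to 991 normalized counts.

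Summed over the 10 genes, normalized counts were 92460 and 102662 in control and 163229 and 137371 after tamoxifen, or 0.180% and 0.200% of all normalized counts against 0.426% and 0.384%. The sum is carried mostly by Pkm, Ldha and Aldoa and is a description, not a test. Tamoxifen library 1 stood above library 2 for 8 of 10 members, beside 58% of all genes, and control library 1 above library 2 for 0 of 10, beside 43.6%. Of the marker sums, tamoxifen library 1 had the higher endothelial, fibroblast, microglia, neutrophil, lymphocyte, erythroid, pluripotency and cell-cycle sums. Tamoxifen library 2 had the higher pericyte and smooth muscle, neuron, astrocyte, oligodendrocyte, and choroid plexus and ependymal sums. The part of these cells in the members' order was not tested.

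Levels between genes were compared per kilobase of the canonical transcript. Lengths were not adjusted for sequence shared with other genes, which ran from 0% of words for Hk1 and Hk2 to 85.8% for Aldoa. Its part in the orders below was not tested. In the control group the order was Pkm (13140 ± 1200 normalized counts per kilobase, SD, n = 2), Ldha (11149 ± 139), Aldoa (9146 ± 1230), Eno1 (3803 ± 366), Hk1 (2345 ± 232), Pfkl (2042 ± 34.9), Pfkp (824 ± 25.2), Pgk1 (558 ± 52.6), Pfkfb3 (372 ± 1.86) and Hk2 (9.36 ± 1.06). No neighbours in that order overlapped between the libraries. In the tamoxifen group it was Aldoa (21453 ± 3011), Pkm (18939 ± 2427), Ldha (13886 ± 2512), Eno1 (5932 ± 289), Pgk1 (2779 ± 82.8), Pfkl (1935 ± 361), Pfkp (1789 ± 74.3), Hk1 (1679 ± 270), Hk2 (776 ± 141) and Pfkfb3 (339 ± 75.3). There Aldoa and Pkm overlapped, as did Pfkl, Pfkp and Hk1 with one another. Aldoa stood below Ldha in both control libraries and above it, without overlap, in both tamoxifen libraries. Pgk1 moved past Hk1, Pfkl and Pfkp, and Hk2 past Pfkfb3.

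Ratios of gene pairs within a library do not depend on the factor that scales it. On the log2 scale, Hk2 over Hk1 changed by 6.83, from -7.10 and -7.07 in control to -0.23 and -0.27. Pfkp over Pfkl changed by 1.21, from -1.25 and -1.22 to -0.26 and 0.20. The other pairs compared a member with an isoenzyme or an opposing enzyme. Aldoc over Aldoa changed by 1.69, Eno2 over Eno1 by 2.54, Ldhb over Ldha by 2.18 and Pfkm over Pfkl by 0.94. Pfkfb3 over Tigar, an enzyme that opposes it, changed by -1.35, from 2.07 and 1.92 to 0.36 and 0.93. Carriers and regulators of pyruvate entry were paired too, with Slc16a3 over Slc16a1 changed by 6.65 and Pdk1 over Pdha1 by 1.35. All 9 ratios had groups that did not overlap, and each exact two-sided permutation p was 0.333 (0.333 after Benjamini-Hochberg adjustment), the smallest that 2 against 2 libraries can give. Groups also did not overlap for 82.3% of all tested genes taken singly. No such share was computed for other gene pairs, so the 9 of 9 is a description. Aldoc, Ldhb and Eno2 are known for brain cells other than endothelium, and the part of such cells in these ratios was not tested.

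**Figure D2:**
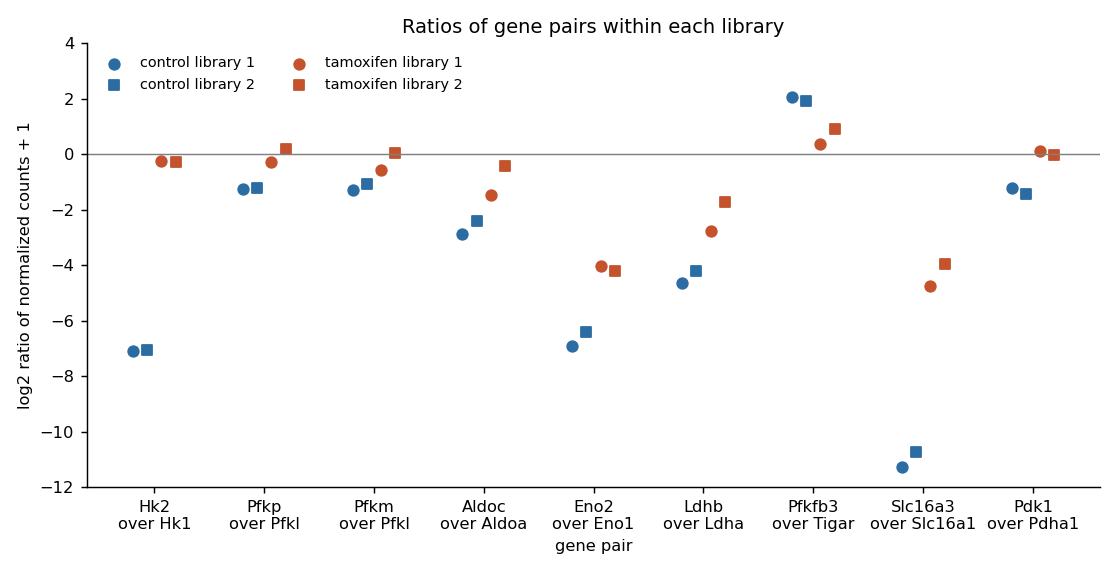
Log2 ratios of normalized counts (each with 1 added) for 9 gene pairs in each library, 1 point a library. Both tamoxifen points lie above both control points for every pair but Pfkfb3 over Tigar, where they lie below, and the steepest differences are 6.83 for Hk2 over Hk1 and 6.65 for Slc16a3 over Slc16a1.

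The scaling of the libraries moved the weaker members. Total normalized counts of the tamoxifen libraries were 0.722 of the control libraries' total. Rescaled to equal totals, the median log2 fold change of all genes shifted by 0.47, and under quantile normalization by -0.28. The share of calls that were higher was 56.7% as deposited, 76.0% with equal totals and 43.5% under quantile normalization. Hk2, Pfkp, Aldoa and Pgk1 were called higher under all 14 alternatives, and their log2 fold changes stayed within 5.98 to 6.81, 1.08 to 1.59, 1.09 to 2.11 and 2.22 to 2.79. Pkm was called higher with equal totals (log2 fold change 0.99, adjusted p = 0.00425) and under quantile normalization (1.61, adjusted p = 0.000827), by limma. Relative to the median of all genes in the same fit, Pkm was at 0.47 as deposited, 0.48 with equal totals and 1.84 under quantile normalization. Ldha was likewise called with equal totals (0.78) and under quantile normalization (1.01), and relative to the median it was at 0.25, 0.26 and 1.24. Equal totals moved every gene by about the same amount, so the signs of Pfkl (0.38) and Pfkfb3 (0.32) turned there while their places relative to the median did not. Relative to the median, Pfkl was at -0.14 as deposited, -0.14 with equal totals and 0.66 under quantile normalization, Pfkfb3 at -0.20, -0.20 and 0.12, and Hk1 at -0.54, -0.53 and 0.26. Pfkl was called higher under quantile normalization (0.43, limma adjusted p = 0.0421).

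**Figure D3:**
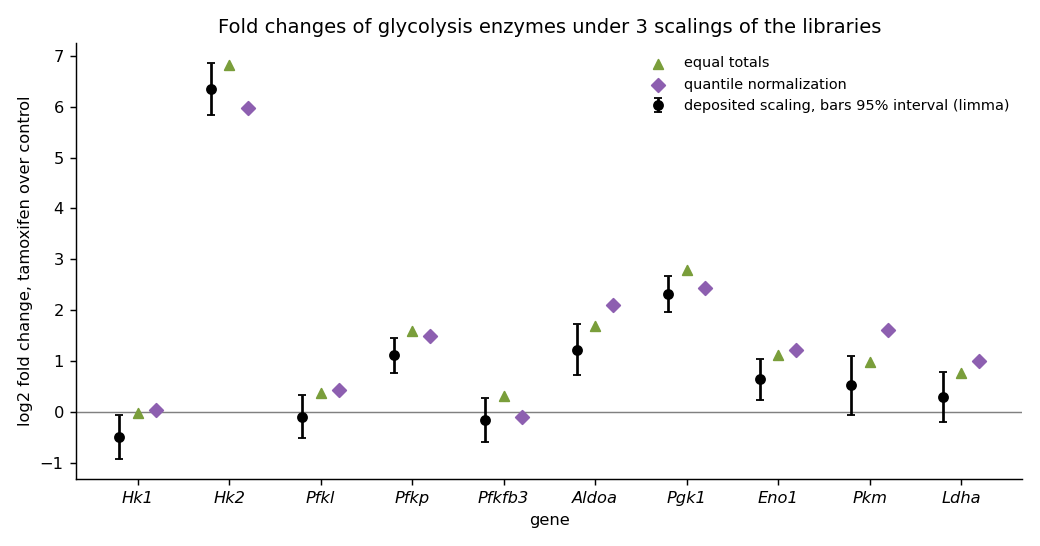
Log2 fold changes (tamoxifen over control) of the 10 enzymes with the deposited scaling (black, bars 95% intervals from limma) and after rescaling to equal totals (green triangles) or quantile normalization (purple diamonds). Hk2, Pgk1, Aldoa, Pfkp and Eno1 stay above 0 under all 3 scalings, while Hk1, Pfkl and Pfkfb3 each have points on both sides of 0, and the interval of Hk1 with the deposited scaling lies below 0.

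The remaining enzymes of the pathway were described from a list of 20 genes, of which 19 were listed in the table and tested. Of these, 14 rose, 1 fell and 4 did not pass the test, with a median log2 fold change of 2.22. For this list and each one below, the shares over all tested genes were 33.4% called higher and 25.5% lower. Gapdh, which makes the first high-energy phosphate, had 6542 and 9072 normalized counts in control against 39813 and 32499, 2.22 ± 0.23 on the log2 scale (limma adjusted p = 0.000152), and 82.5% of its words occur in other transcripts. Pgam1, a phosphoglycerate mutase, rose by 1.97 ± 0.17, Tpi1, triose phosphate isomerase, by 0.93 ± 0.18 and Pfkm, the muscle phosphofructokinase, by 0.85 ± 0.17. Gpi1, glucose phosphate isomerase, was at 0.37 ± 0.20 (limma adjusted p = 0.149). Aldoc rose by 2.92 ± 0.31, Ldhb by 2.49 ± 0.25 and Eno2 by 3.19 ± 0.33. Eno1b, an enolase copy of Eno1, had 15.1 and 21.3 normalized counts in control against 1720 and 1418, and 87.4% of its words occur in other transcripts. Among further hexokinases, Hkdc1 rose by 6.05 ± 0.53 and Hk3, typical of white blood cells, by 4.92 ± 0.42. Control libraries held 10 and 13 reads of Hk3 and only 2 and 4 of Hkdc1, near the floor of 3 reads. The size of the Hkdc1 change is therefore uncertain, and it ran from 4.66 to 6.47 over the 14 alternatives. Pklr, the liver and red-cell pyruvate kinase, had 1.37 and 1.25 normalized counts in control, 1 read each, against 308 and 242, at least 66.9-fold higher than 3 reads in the control library where a read weighs most. The calls of Pfkm without tamoxifen library 2 (adjusted p = 0.0701) and Tpi1 without tamoxifen library 1 (adjusted p = 0.0503) were lost in limma.

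Of the relatives of Pfkfb3, 3 of 4 rose and 0 fell. Pfkfb4 rose by 2.04 ± 0.37, Pfkfb1 by 1.56 ± 0.37 and Tigar, which lowers the same activator, by 1.20 ± 0.18, and without tamoxifen library 1 or 2 the calls of Pfkfb1 (limma adjusted p = 0.116 and 0.105) and Pfkfb4 (0.0798 and 0.127) were lost. Under quantile normalization the log2 fold change of Pfkfb1 was 0.31 (limma adjusted p = 0.465).

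Among 12 carriers of glucose and lactate, 7 rose, 3 fell and 2 did not pass the test. Slc2a1, the glucose carrier of the blood-brain barrier, fell from 174504 and 185224 normalized counts to 42146 and 20957, a log2 fold change of -2.60 ± 0.39 (limma adjusted p = 0.000921). Slc2a3, the glucose carrier known from neurons and white blood cells, rose from 105 and 168 to 33405 and 27330, by 7.82 ± 0.24 on the log2 scale. Per kilobase, Slc2a3 stood at 0.0679% and 0.102% of Slc2a1 in control and at 89.0% and 146% after tamoxifen. Slc2a4, the insulin-regulated carrier, rose by 3.36 ± 0.37. Slc16a3, the lactate exporter of glycolytic cells, had 43.8 and 46.3 in control against 2125 and 1825, 5.42 ± 0.26 on the log2 scale. Slc16a1, the monocarboxylate carrier of brain endothelium, had a log2 fold change of -1.24 ± 0.39 (limma adjusted p = 0.0282), and its call was lost without control library 1 (adjusted p = 0.161) or tamoxifen library 2 (0.178). Slc16a1 was called in 8 of 14 alternatives, and not with equal totals (-0.77, limma adjusted p = 0.103), no trend (0.0797) or no filter (0.0503). Under quantile normalization it was not called either, and its log2 fold change turned to 0.016 (limma adjusted p = 0.973). Bsg, which brings these carriers to the membrane, fell by 2.78 ± 0.60 on the log2 scale, a call lost without tamoxifen library 2 (limma adjusted p = 0.0540). Without tamoxifen library 1 or 2 this list had 4 genes called higher each time, and without library 2 it had 1 called lower.

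Of 14 genes of pyruvate entry into mitochondria, 5 rose, 1 fell and 8 did not pass the test. The 5 of 14 called higher was near the share of all tested genes, 33.4%. Pdk1, a kinase that switches off pyruvate dehydrogenase, rose by 1.999 ± 0.16, Pdp2, a phosphatase that switches it on, by 1.91 ± 0.19, and Pdk3 by 1.19 ± 0.21, a call lost without tamoxifen library 1 (limma adjusted p = 0.0654). Pcx, pyruvate carboxylase, had a log2 fold change of -0.99 ± 0.15 (limma adjusted p = 0.000879), and Pdk4 of 0.57 ± 0.26 (adjusted p = 0.0971). In the pentose phosphate pathway, the branch that makes NADPH and ribose, 4 of 9 rose and 0 fell. One of them, Tktl1, had 4 and 1 reads in the control libraries, near the floor of 3 reads, so the size of its change is uncertain. Tkt rose by 1.59 ± 0.18, Pgd by 0.84 ± 0.16, G6pdx by 1.00 ± 0.17 and Tktl1 by 3.35 ± 0.70, the last pair of calls lost without tamoxifen library 1 (limma adjusted p = 0.0542 and 0.0731) or library 2 (0.0539 and 0.0859). Without either tamoxifen library, 2 of the 9 were called.

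Of 8 genes of the serine and glycerol branches, which leave glycolysis at its middle, 6 rose and 2 fell. Phgdh, the first enzyme of serine synthesis, rose from 116 and 197 normalized counts to 2095 and 2480, by 3.90 ± 0.28 on the log2 scale. Psat1, the next, rose by 3.47 ± 0.17 and Shmt1, which turns serine into glycine, by 3.34 ± 0.22. Gpd1, glycerol phosphate dehydrogenase, rose by 2.62 ± 0.32, a call lost without tamoxifen library 2 (limma adjusted p = 0.0518). The 2 that fell, named after their values were seen, encode its relatives. Gpd2, the mitochondrial enzyme, had 16950 and 15391 normalized counts in control against 6425 and 4755, a log2 fold change of -1.55 ± 0.20 (limma adjusted p = 0.000388), and Gpd1l one of -0.57 ± 0.15 (adjusted p = 0.0123). The call of Gpd1l was lost without control library 1 (limma adjusted p = 0.0554), control library 2 (0.0542) or tamoxifen library 2 (0.0664), with equal totals (0.530) and with no trend (0.0725). Of 10 glycogen genes, 7 rose, 2 fell and 1 did not pass the test. Pygl, the liver glycogen phosphorylase, rose by 5.23 ± 0.33, Pgm1 by 1.93 ± 0.19 and Gys1, glycogen synthase, by 1.80 ± 0.18, while Gbe1, the branching enzyme, had a log2 fold change of -1.31 ± 0.17. Without tamoxifen library 2, 3 of the 10 were called higher. Of 5 tested genes of 6 listed for gluconeogenesis, the reverse route, 2 rose and 1 fell. Control libraries held 5 and 6 reads of Fbp1, near the floor of 3 reads. Fbp2 had 2 reads in each control library and was at least 34.9-fold higher, Fbp1 rose by 2.06 ± 0.57 (call lost without tamoxifen library 1, limma adjusted p = 0.0530, or 2, 0.0514) and G6pc had a log2 fold change of -3.64 ± 0.45.

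Among 11 regulators of glycolytic genes, 4 rose, 2 fell and 5 did not pass the test. The 4 of 11 called higher was near the share of all tested genes, 33.4%. Hif1a, a hypoxia-inducible factor subunit regulated mostly as a protein, had 5778 and 5372 normalized counts in control and 5246 and 4555 in the tamoxifen libraries (log2 fold change -0.19 ± 0.16, limma adjusted p = 0.332), and it was at 0.20 under quantile normalization (adjusted p = 0.208, limma). Epas1, the related subunit abundant in endothelium, fell from 223088 and 245141 to 41131 and 24834, a log2 fold change of -2.87 ± 0.37. Egln3, an oxygen-dependent hydroxylase of these subunits, rose by 3.41 ± 0.28. Myc rose from 219 and 280 to 1480 and 1380, by 2.52 ± 0.22, Mycn by 1.82 ± 0.17 and Mlxip, a glucose-sensing factor, by 3.37 ± 0.27. Over the 92 tested genes of these lists, 52 were called higher and 12 lower, beside 33.4% and 25.5% of all genes, with a median log2 fold change of 0.85. Without tamoxifen library 2 the calls were 34 and 7, in a fit where calls over all genes went from 6843 and 5228 to 3233 and 2344.

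**Figure D4:**
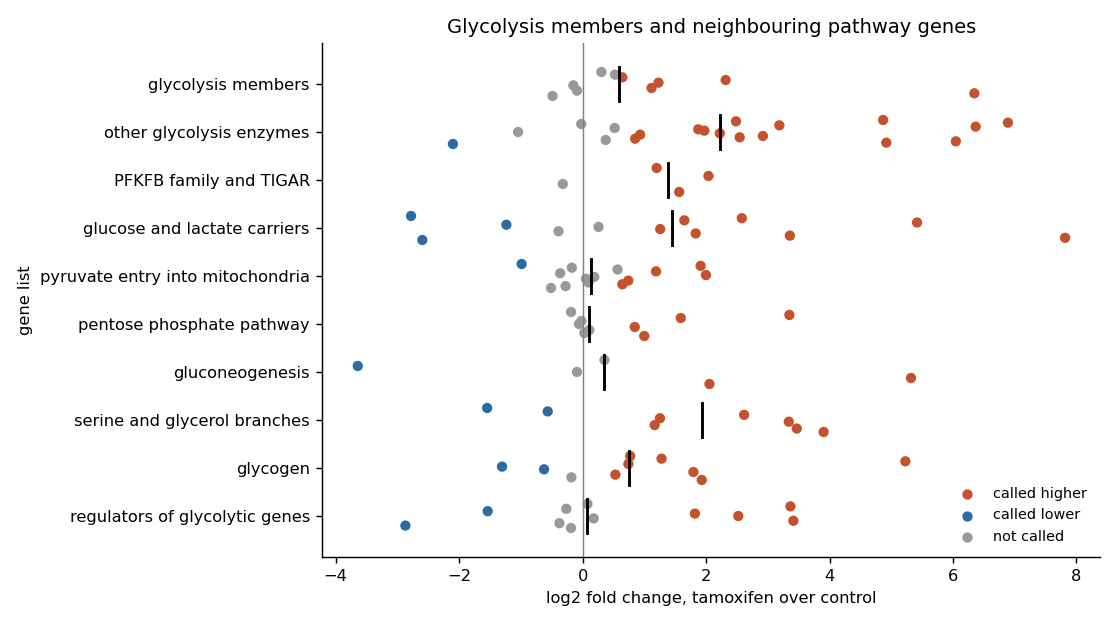
Log2 fold change (tamoxifen over control) of each tested gene, 1 point a gene, in the 10 glycolysis enzymes and 9 lists of neighbouring genes, coloured by the limma call, with the list's median as a black bar. The other glycolysis enzymes have a median of 2.22 against 0.58 for the 10 members, and Slc2a3 at 7.82 is the point farthest to the right.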

How the data were processed

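RNA-Seq of 2 control and 2 tamoxifen libraries was analysed. KAPA Stranded mRNA-Seq libraries were sequenced on a NovaSeq X Plus. Reads were mapped to GRCm39 by the authors (STAR 2.7.10a), who dropped genes of low count and used DESeq2 1.36.0 for normalization, and the annotation, the strand setting and the low-count limit are not given in the sources used here. Deposited per gene was a signal, the read count after division by 1 factor per library, as the authors made it. Whole reads were recovered for 100% of values (tolerance 0.01). The floor of 3 reads was worth 2.16 to 4.11 normalized counts, and it covers counting error only. Columns were assigned to libraries by letter and number, C read as control and A as the group with arteriovenous malformations, which the labels call treated, so every direction rests on that reading. Columns of other samples numbered 0.

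Genes whose mean reached 10 normalized counts were tested on the log2(normalized count + 1) scale with limma 3.58.1 under R 4.3.3 (moderated by eBayes, trend included), with Benjamini-Hochberg adjustment over all 20485 genes tested. This scale understates changes of low genes. Called means an adjusted p under 0.05. The test was checked on simulated data in which only a small part of the genes changed, drawn evenly from both directions. That check does not cover a shift as broad as the one here, where 58.9% of tested genes were called. Alternatives were pseudocounts of 0.5 and 5, no filter or a filter at 100, quantile normalization, equal totals, a fit lacking the trend, a replicate block, count models on recovered reads (edgeR 4.0.16, DESeq2 1.42.0), leaving out each library, and an absolute log2 fold change over 1 as a further criterion.

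The members and gene lists were chosen with earlier results of these data known. Named from each list were up to 4 called genes with the largest change and groups that did not overlap, besides a fixed set of isoenzymes, carriers and regulators. Pgk2 was not in the table used here, and Pck1 did not pass the filter. Promoter windows and gene symbols came from RefSeq (GRCm38.p6), with 10 of 10 members matched, and gene positions, transcript lengths and 50-base words from GENCODE M39 on GRCm39. No protein sequences were used here.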

Additional observations from a re-analysis of the deposited data

How the results depend on the processing

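Hk2, Pgk1, Aldoa and Pfkp were called higher under all 14 alternatives. With 5 members called higher as deposited, quantile normalization gave 8, equal totals 7, DESeq2 6, edgeR 5 and no trend 4, where Eno1 was not called (adjusted p = 0.0612), and leaving out 1 library gave 4 to 5. Hk1 was called lower (1 member instead of 0) with a pseudocount of 5, a filter at 100 or the replicate block, and 0 members were called lower without any 1 library. Opposite directions were seen for Hk1 under quantile normalization (log2 fold change 0.037), Pfkl with equal totals (0.38) and quantile normalization (0.43), Pfkfb3 with equal totals (0.32), Slc16a1 under quantile normalization (0.016), Pdk4 under quantile normalization (-0.12), Hif1a with equal totals (0.28) and quantile normalization (0.20) and Mgp with equal totals (0.079), while Mgp was called lower under quantile normalization (-0.65, limma adjusted p = 0.0128). Equal totals shifted the median of all genes by 0.47, and relative to it Pfkl stayed at -0.14, Pfkfb3 at -0.20, Hif1a at -0.24 and Mgp at -0.44. Equal totals and quantile normalization also gave calls for Gpi1 (0.84 and 1.08), equal totals for Pdk4 (1.04), and Fbp1 lost its call under quantile normalization (1.02). Without 1 library, the log2 fold change of Pfkl ranged from -0.28 to 0.10 and that of Pfkfb3 from -0.38 to 0.078. The cause of the other moves was not tested. The members' median log2 fold change was 1.05 with equal totals.

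The log2 ratio of Hk2 over Hk1 changed by 6.76 with a pseudocount of 5 and by 5.95 under quantile normalization, where Eno2 over Eno1 changed by 1.10, Pfkfb3 over Tigar by -0.94 and Slc16a3 over Slc16a1 by 4.91. Over the neighbouring genes, leaving out 1 library gave 34 to 53 called higher and 7 to 11 called lower. By list, these ranges were 0 to 1 lower for other glycolysis enzymes, 1 to 3 higher for the relatives of Pfkfb3, 4 to 7 higher and 1 to 3 lower for carriers, 3 to 5 higher and 1 to 2 lower for pyruvate entry, 2 to 4 higher for the pentose phosphate pathway, 1 to 3 higher for gluconeogenesis, 1 to 2 lower for serine and glycerol, and 3 to 6 higher and 1 to 2 lower for glycogen. Under equal totals, 0 other glycolysis enzymes, 1 serine or glycerol gene and 1 glycogen gene were called lower, and 9 genes of pyruvate entry and 7 of the pentose phosphate pathway higher. Quantile normalization gave 2 other glycolysis enzymes, 1 relative of Pfkfb3 and 4 genes of pyruvate entry lower, and 3 carriers and 1 gene of gluconeogenesis higher. The filter at 100 tested fewer genes and gave 0 other glycolysis enzymes lower, 4 carriers higher and 0 genes of gluconeogenesis higher, and no trend gave 1 serine or glycerol gene and 1 glycogen gene lower.

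In the sources used here, only the number links libraries with the same number. Their deviations from the group means correlated with r = 0.03 over genes, a value that cannot settle whether they shared a batch. With the replicate block, 5 members were called higher and 1 lower (Hk1, limma adjusted p = 0.0460), and 53 and 12 of the neighbouring genes. With a library left out, a group of 1 was assumed to vary like the other. Depth limited no member: the lowest, Hk2 in control library 1, was above the floor of 3 reads.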
